A study of Mus musculus with 8 samples.

Results

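The genes described here are the vascular endothelial growth factor (VEGF) receptors Flt1, Kdr and Flt4, the ligands Vegfa, Vegfb, Vegfc and Pgf, and the co-receptors Nrp1 and Nrp2. These 9 of the 53801 genes of the count table were taken by gene symbol, and each symbol matched a single Ensembl gene. The set was built around Flt1 because Flt1 had already been seen to differ between the genotypes in these libraries, and Flt1 was thus selected on its own counts in this contrast. Its difference is therefore given below as a description without a test. RNA was measured in Paneth cells, the antimicrobial secretory cells at the base of small intestinal crypts, which were sorted as viable EpCAM+ Cd24+ cells from mice of 4 to 6 weeks at induction. Tamoxifen was injected on 3 consecutive days, and the cells were isolated 10 d after induction. The 4 control mice were beta-cateninGOF; Mll1+/- and the 4 knockout mice were beta-cateninGOF; Mll1-/-. The Cre recombinase was driven by the Lgr5 promoter, which is active in crypt stem cells. Where Cre had acted, cells of both genotypes therefore carried the stabilized beta-catenin allele, which lacks exon 3, and at least 1 deleted Mll1 allele. The sorting markers do not tell such cells from cells in which Cre had not acted. No mice without the beta-catenin allele or with 2 intact Mll1 alleles were part of this comparison.

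VEGF ligands are secreted dimers that bind receptor tyrosine kinases on endothelial cells. Kdr (VEGFR2) carries most of the signal for vessel growth and permeability, Flt4 (VEGFR3) serves lymphatic vessels, and Flt1 (VEGFR1) binds Vegfa tightly with weak kinase activity and also exists as a soluble form that holds ligand away from Kdr. Neuropilins bind VEGF ligands and class 3 semaphorins and act as co-receptors. In the intestine Vegfa from the epithelium helps to keep the capillaries of the villi. Counts per gene sum all transcript forms, so soluble and membrane-bound Flt1 cannot be told apart here.

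The libraries held between 13037832 and 14380240 counts on genes, and levels are given as normalized CPM, counts scaled to the library's total (CPM) after edgeR's TMM correction. On this scale 3 reads are worth 0.172 to 0.352, depending on the library. Knockout 3 stood apart, with counts on 19662 genes against 22623 to 26074 in the other 7 libraries, a mitochondrial share of 2.04% against 3.26% to 8.78%, and a TMM factor of 0.632 against 0.822 to 1.34. Kmt2a, the gene that encodes Mll1, had 32.2 ± 10.8 normalized CPM in controls and 30.9 ± 5.54 in knockouts (SD, n = 4 each; edgeR adjusted p = 0.995). This count covers all exons and is no measure of the deletion. The cells carried the markers of their label, with summed levels of 12 Paneth cell markers between 261000 and 732000 normalized CPM in every library, and 0 of these 12 genes were called between the genotypes by the cutoffs given below, where 0.186% of all genes tested were (lowest adjusted p = 0.916 in edgeR's test across all 13439 genes; 0 also at an unadjusted p under 0.05). Of 9 epithelial and 9 goblet cell markers, 0 were called either (lowest adjusted p = 0.589 and 0.361), with 1 and 2 lower at the unadjusted limit, where 2.53% of all genes tested were lower. The 2 goblet genes, named after their values were seen, were Zg16 (89.9 ± 144 normalized CPM in controls and 2.55 ± 4.54 in knockouts, SD, n = 4 each; log2 fold change -5.05, edgeR adjusted p = 0.68) and Fcgbp (114 ± 106 and 24.1 ± 8.12; -2.24, adjusted p = 0.361). In both the groups overlapped and control 3 was highest, at 303 and 266. Of the 9 goblet cell markers, 5 had a log2 fold change above 0 and 4 below, with a median of 0.1. The levels of the Paneth cell markers do not measure the purity of the sort, and markers of enteroendocrine and tuft cells were not examined.

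The upstream sequences of Flt1 and Kdr are shown because these 2 receptor genes lie on the same chromosome and bind the same ligand, while their counts differed widely in the knockouts. Flt1 (ENSMUSG00000029648) spans chr5:147561604-147726011 on the minus strand with 13504 exon bases, and Kdr (ENSMUSG00000062960) spans chr5:75932827-75978458 on the minus strand with 9030 exon bases (mm10). The 250 bases before the RefSeq start of each gene (GRCm38.p6, minus strand) lie at chr5:147726012-147726261 for Flt1 and chr5:75978456-75978705 for Kdr. Capitals mark matches on either strand to the cAMP response element TGACGTCA, the hypoxia response cores ACGTG and GCGTG, the Tcf/Lef letters CTTTGAA and CTTTGAT and the TATA box TATAAA. The motifs were picked after the sequences had been seen, and no matches overlapped in these windows.
Flt1: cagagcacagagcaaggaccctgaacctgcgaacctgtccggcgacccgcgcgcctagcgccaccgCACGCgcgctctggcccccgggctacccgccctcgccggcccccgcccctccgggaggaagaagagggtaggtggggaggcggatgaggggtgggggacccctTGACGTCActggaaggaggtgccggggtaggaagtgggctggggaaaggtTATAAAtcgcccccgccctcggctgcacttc
Kdr: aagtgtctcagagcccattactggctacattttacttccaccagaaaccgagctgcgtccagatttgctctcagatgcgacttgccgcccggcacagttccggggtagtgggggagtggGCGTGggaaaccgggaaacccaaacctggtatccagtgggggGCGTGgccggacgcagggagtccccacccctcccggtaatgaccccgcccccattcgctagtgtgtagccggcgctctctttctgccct

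The Flt1 window held 1 cAMP response element, 1 TATA box and 1 GCGTG core, and the Kdr window held 2 GCGTG cores. Over 32536 different upstream windows of mouse genes, 1.56% held TGACGTCA, 12.3% TATAAA, 28.3% GCGTG, 16.7% ACGTG, 4.47% CTTTGAA and 3.21% CTTTGAT. Among the 11 windows of the 9 genes, TGACGTCA and TATAAA were found only in that of Flt1, CTTTGAT only in that of Nrp2 and ACGTG only in 1 of the 2 Vegfa windows. These matches are descriptions of letters, and no binding was measured.

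Among the receptors, Flt1 was close to 0 in the controls and detected in every knockout, while Kdr and Flt4 stayed at or under 3 counts in all 8 libraries. Flt1 had library counts of 4, 2, 1 and 0 (controls 1 to 4) and of 67, 41, 27 and 37 (knockouts 1 to 4). The lowest knockout lay far above the highest control, and no library of either group came near the other group. In normalized CPM, Flt1 was at 0.251, 0.159, 0.0897 and 0 in the controls and at 3.98, 2.35, 3.17 and 2.24 in the knockouts. Knockout 3, with the fewest counts, was exceeded only by knockout 1 on this scale, and the highest knockout was 1.77 times the lowest. The means were 0.125 ± 0.106 in controls and 2.94 ± 0.809 in knockouts (SD, n = 4 each), and the fitted log2 fold change was 4.4 (standard error 0.65). With 7 counts in all controls together, the ratio of the summed counts after scaling was 21.7. Its exact 95% interval, from 10.3 to 54.8, covers counting error of reads only, PCR copies included. Flt1 was selected on these counts, so the interval is no test of the difference. The difference on log2 normalized CPM with 1 added was 1.76 within the run of label numbers that holds controls 1 and 2 and knockouts 1 and 2, and 1.82 within the other run. Flt1 passed the filter on low counts only through the knockouts, and its mean level over the 8 libraries was at the 16.3 percentile of the genes tested. Fewer cells with the transcript and less transcript per cell cannot be told apart in RNA from pooled cells.

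Kdr, the main signalling receptor of endothelium, had library counts of 2, 1, 0 and 2 (controls 1 to 4) and of 0, 1, 0 and 0 (knockouts 1 to 4). Flt4, the lymphatic receptor, received 1, 1, 0 and 0 counts in the controls and 0, 3, 0 and 0 counts in the knockouts. In both genes the groups overlapped, and all libraries were at the level where single reads decide the order. The ratio of summed counts was 0.177 for Kdr (exact 95% interval 0.00374 to 1.58) and 1.33 for Flt4 (0.152 to 15.9). These intervals cover counting error only, and no difference from Flt1 is read from them. Of the counts on the 3 receptors together, Flt1 took 172 of 176 in the knockouts and 7 of 14 in the controls. Neither Kdr nor Flt4 passed the filter on low counts, and these ratios rest on 1 to 5 counts a group.

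**Figure D1:**
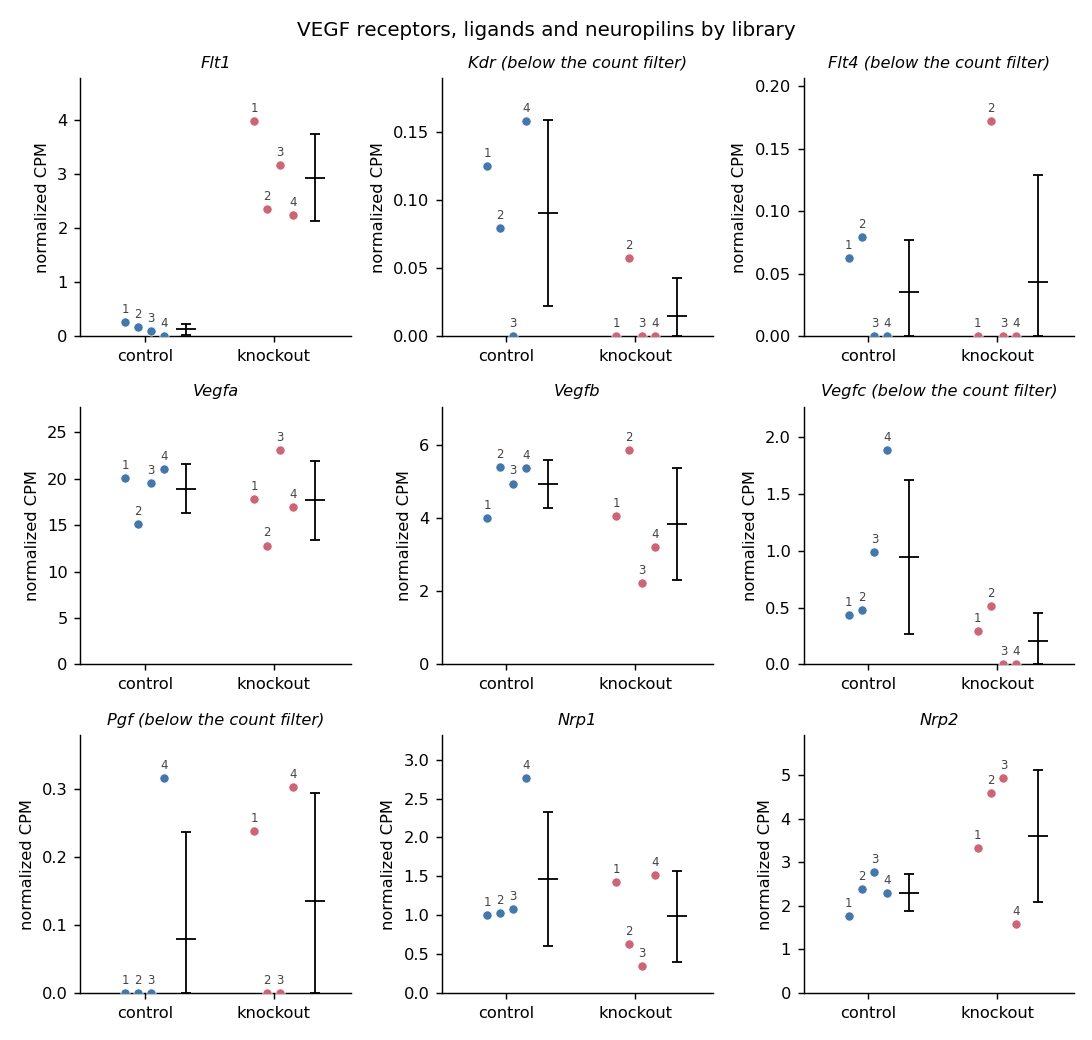
Normalized CPM (y axis, linear from 0, a different range in each panel) of the 9 genes in the 4 control (blue) and 4 knockout (red) libraries, numbered by replicate; the black marks are means with 1 SD, drawn no lower than 0. Flt1 lies between 0 and 0.251 in the controls and between 2.24 and 3.98 in the knockouts, while in each of the other 8 panels the groups overlap.

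Vegfa, the principal ligand of Flt1 and Kdr, was the best measured member. It had library counts of 321, 190, 217 and 266 (controls 1 to 4) and of 300, 223, 197 and 279 (knockouts 1 to 4). The normalized levels were 18.9 ± 2.64 CPM in controls and 17.7 ± 4.25 in knockouts (SD, n = 4 each), with overlapping groups and a log2 fold change of -0.1 (standard error 0.21). Knockout 2 was the lowest library and knockout 3 the highest. Vegfb, a ligand of Flt1 but not of Kdr, was at 4.93 ± 0.646 normalized CPM in controls and 3.84 ± 1.54 in knockouts, which gave a log2 fold change of -0.35 (standard error 0.33). Its values ran from 4.01 to 5.4 in the controls and from 2.23 to 5.86 in the knockouts, so that the knockouts reached both below and above the controls. Knockouts 3 and 4, at 2.23 and 3.21, were under every control, and the difference was 0.05 in the run with knockouts 1 and 2 and -0.74 in the run with knockouts 3 and 4, on log2 normalized CPM with 1 added.

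Vegfc, which acts mainly through Flt4, had library counts of 7, 6, 11 and 24 (controls 1 to 4) and of 5, 9, 0 and 0 (knockouts 1 to 4). Control 4 was highest at 1.89 normalized CPM, and knockouts 3 and 4 had no count, but knockout 2 at 0.517 lay above controls 1 and 2 at 0.439 and 0.476. The ratio of summed counts was 0.258 (exact 95% interval 0.131 to 0.475, counting error only), the largest decrease among the 4 ligands. Vegfc did not pass the filter on low counts. Within the 2 runs of label numbers its difference was -0.06 and -1.26 on log2 normalized CPM with 1 added, so nearly all of it lay in the run with controls 3 and 4 and knockouts 3 and 4. Pgf, a ligand that binds Flt1 and not Kdr, had 4 counts in control 4, 4 in knockout 1, 5 in knockout 4 and none in the other 5 libraries.

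Per kilobase of exon, Vegfa had the highest level of the 9 genes in both genotypes, with a mean of 4.41 normalized CPM per kilobase in controls and 4.12 in knockouts. Vegfb followed with 3.07 and 2.39. In the controls the lowest Vegfa level (3.52) was above the highest Vegfb level (3.36), while in the knockouts the ranges overlapped. In the controls the order went on with Vegfc at 0.388, Nrp2 at 0.194, Nrp1 at 0.15 and Pgf at 0.0272, where each range overlapped the next. The 3 receptors came last in the controls, at 0.01 for Kdr, 0.00924 for Flt1 and 0.00431 for Flt4, and their ranges overlapped. In the knockouts the order after Vegfb was Nrp2 at 0.305, Flt1 at 0.218, Nrp1 at 0.1 and Vegfc at 0.0831. The range of Flt1 there, from 0.166 to 0.295, overlapped that of Nrp2, from 0.133 to 0.417, and lay above that of Nrp1, from 0.036 to 0.155.

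**Figure D2:**
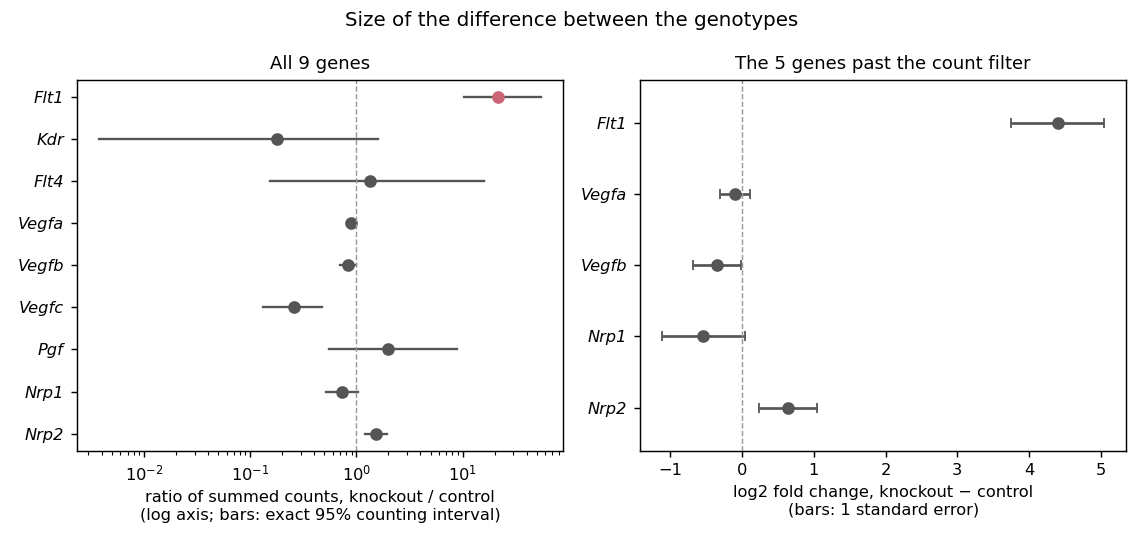
Left, ratio of summed scaled counts between knockouts and controls (log axis) for the 9 genes with exact 95% counting intervals; right, fitted log2 fold changes with 1 standard error for the 5 genes that passed the filter on low counts. Flt1 is at a ratio of 21.7 and a log2 fold change of 4.4, and the other 4 fitted genes lie between -0.54 and 0.64.

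Of the neuropilins, Nrp1, which binds Vegfa and Sema3a, had library counts of 16, 13, 12 and 35 (controls 1 to 4) and of 24, 11, 3 and 25 (knockouts 1 to 4). The means were 1.47 ± 0.863 and 0.982 ± 0.578 normalized CPM (SD, n = 4 each), for a fitted log2 change of -0.54 (standard error 0.58). Control 4 carried most of this value, which was -0.05 without it. Nrp2, which binds Vegfc and Sema3f, had library counts of 28, 30, 31 and 29 (controls 1 to 4) and of 56, 80, 42 and 26 (knockouts 1 to 4). Knockouts 1 to 3 lay above every control, at 3.33 to 4.93 normalized CPM against 1.76 to 2.78, while knockout 4 at 1.58 was below all of them. The log2 fold change of Nrp2 was 0.64 (standard error 0.4).

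A gene was called when its adjusted p did not exceed 0.05 and its log2 fold change reached 0.5 in either direction, the cutoffs of the study. By this measure 25 of the 13439 genes tested were called (0.186%), with 0.156% higher and 0.0298% lower in the knockouts. Of the 9 VEGF genes, 5 passed the filter on low counts and 1, Flt1, was among the genes called, which is the reason it was chosen, so nothing is read from this count. Flt1 was no longer called when control 1, 2 or 3 or knockout 1 or 2 was left out. The groups did not overlap for Flt1, which its choice had fixed, so nothing is read from that either. Of all genes tested, 4.52% had groups that did not overlap, 2.59% with the knockouts above and 1.93% with the knockouts below. Of the 5, 2 had a log2 fold change above 0, as did 50.9% of all genes tested.

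The genes whose levels followed Flt1 most closely were ranked by Pearson's r of log2 normalized CPM with 1 added, over the 8 libraries and among all genes tested. They were Prss56, a trypsin-like serine protease (r = 0.988), Spock2, a secreted proteoglycan (0.98), Stra6, a receptor for the retinol-binding protein (0.971), Ptn, a heparin-binding growth factor (0.967), and Adam8, a membrane metalloprotease (0.966). Stra6 was at 0.0791 ± 0.0914 normalized CPM in controls and 1.48 ± 0.553 in knockouts, and Adam8 at 0.168 ± 0.226 and 1.59 ± 0.383 (SD, n = 4 each). In all 5 every knockout lay above every control. The choice of Flt1 by its gap between the genotypes largely fixed this, so nothing is read from it. The points share their libraries and their scaling, and r includes that gap.

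Endothelial cells carry Flt1 together with Kdr, and 24 endothelial markers were therefore set beside it. Only 4 of the 24, Ecscr, Pecam1, Esam and Sox17, passed the filter, and 6, namely Tie1, Emcn, Cldn5, Erg, Robo4 and Tal1, had at most 3 counts in every library. Cdh5, the cadherin of endothelial junctions, had 1, 0, 4 and 0 counts in controls 1 to 4 and 8, 2, 0 and 0 in knockouts 1 to 4. Tek, the angiopoietin receptor, had 11, 4, 9 and 2 counts in the controls and 12, 4, 0 and 13 in the knockouts. Knockout 3 had no count on Kdr, Cdh5, Tek or Tie1, and it was the highest library for Pecam1 (6.34 normalized CPM), Ecscr (14.4) and Mmrn2 (1.06), the last singled out after its values were seen. Pecam1, an adhesion molecule of endothelium and leukocytes, was at 4.39 ± 1.03 normalized CPM in controls and 4.61 ± 1.22 in knockouts (SD, n = 4 each), for a fitted log2 change of 0.06 (SE 0.31, edgeR adjusted p = 0.995). Esam, another junction molecule, had a log2 fold change of -0.87 (SE 0.58, adjusted p = 0.882).

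The summed level of all 24 markers was between 15.1 and 21.1 normalized CPM in the controls and between 22.3 and 24.5 in the knockouts, so that it moved in the same direction as Flt1 without overlap. Ecscr, which codes for a cell-surface regulator of endothelial migration, had the highest level of the 24 and overlaps an antisense gene over 3.7% of its exons. It was at 4.58, 3.33, 4.85 and 5.84 normalized CPM in controls 1 to 4 and at 11.2, 9.82, 14.4 and 9.04 in knockouts 1 to 4, with every knockout above every control. Its log2 fold change was 1.25 (SE 0.26, edgeR adjusted p = 0.127), and the adjusted p of DESeq2's Wald test was 0.00198, in a range from 0.00198 to 0.346 over 16 alternatives. Without Ecscr, a sum taken after its values were seen, the other 23 markers were between 11.7 and 16.2 in the controls and between 8.58 and 15.5 in the knockouts. The sum of Pecam1 and Esam, likewise taken after the values were seen, lay the other way without overlap, at 8.08 to 9 in the controls and 6.46 to 7.22 in the knockouts. Each of these genes alone had overlapping groups, so nothing is read from their sum. The summed level of 13 pericyte and fibroblast markers was 1.89 to 3.09 in the controls and 1.26 to 2.7 in the knockouts, and none of them passed the filter. That of 16 immune markers, one of which is Ptprc, the CD45 for which the cells were stained before sorting, was 4.97 to 15.4 and 2.55 to 13.8, and 0 of the 2 immune markers tested were called. The part of other cell types in the Flt1 counts was not tested beyond these values.

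**Figure D3:**
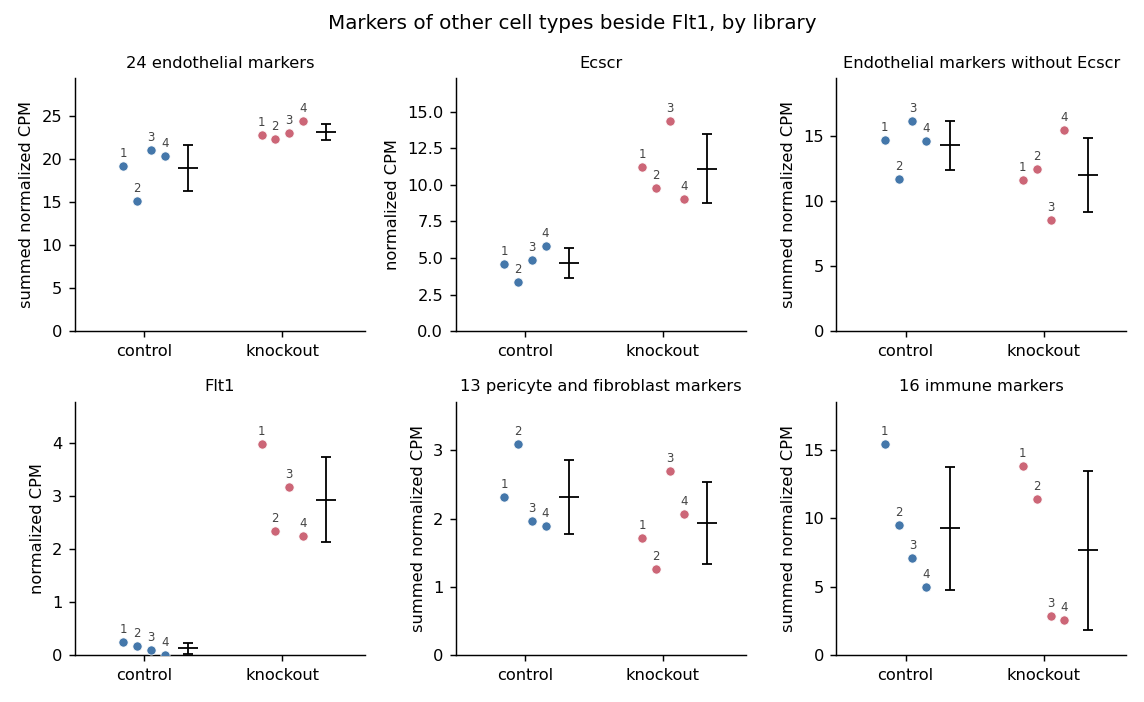
Levels by library (y axes, linear from 0, normalized CPM) of 24 summed endothelial markers, of Ecscr alone, of the other 23 without Ecscr, of Flt1, and of summed stromal and immune markers; blue points are controls, red points knockouts, black marks means with 1 SD. The 24 markers do not overlap between genotypes (15.1 to 21.1 against 22.3 to 24.5), and without Ecscr they do (11.7 to 16.2 against 8.58 to 15.5).

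None of the related gene lists had a member past both cutoffs. Of the 13 partners of the neuropilins, 8 were tested, 0 were called, and 2 had an unadjusted p under 0.05, both higher in the knockouts. Of all genes tested, 6.88% were under that limit, 4.35% higher and 2.53% lower. The median log2 fold change was 0.18, against 0.01 over all genes tested. Sema3c, a secreted semaphorin that binds neuropilins, had a log2 fold change of 1.61 (SE 0.47, adjusted p = 0.39). Its levels were 5.16 to 11.1 normalized CPM in the controls and 38, 37.8, 5.76 and 23.7 in knockouts 1 to 4, so that only knockout 3 was among the controls, and without that library Sema3c passed both cutoffs (log2 fold change 1.94, adjusted p = 0.0037, in a range from 0.00287 to 0.783 over 16 alternatives). Sema3f, the ligand of Nrp2, singled out after its values were seen, was at 0.547 ± 0.144 and 1.5 ± 0.488 normalized CPM (SD, n = 4 each), with every knockout above every control (log2 fold change 1.42, standard error 0.47, adjusted p = 0.498). Of the other members with the highest counts, Plxna2, a plexin, and Sema3b both had log2 fold changes of -0.32 (adjusted p = 0.943 and 0.939).

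Of 52 genes that relay signals from VEGF receptors, 43 were tested and 0 were called, with a median log2 fold change of -0.01. At an unadjusted p under 0.05, 1 was higher and 3 were lower, against 4.35% and 2.53% of all genes tested. The higher gene was Gab1, a docking protein (log2 fold change 1.05, adjusted p = 0.589). The lower genes were Plcg2 (log2 fold change -0.75), Sphk2 (-0.6) and Ppp3ca. Gab1, Plcg2 and Sphk2 were singled out after their values were seen. The members with the most counts were the small GTPase Cdc42 (log2 fold change -0.02, standard error 0.17), the calcineurin subunit Ppp3ca (-0.47, standard error 0.19, adjusted p = 0.667) and the scaffold Iqgap1 (-0.15, standard error 0.18). Of the hypoxia response genes, a group that includes well-known inducers and companions of Vegfa, 23 of 26 were tested and 0 were called, and the median was 0.01. Hif1a, the hypoxia-inducible subunit, was at 23.5 ± 3.62 normalized CPM in controls and 23.9 ± 4.47 in knockouts (SD, n = 4 each; log2 fold change 0.03, standard error 0.19). Ndrg1 and Ldha, both hypoxia-inducible, had log2 fold changes of -0.11 and -0.09 (standard errors 0.22 and 0.15). At an unadjusted p under 0.05, 0 hypoxia genes were higher and 1 was lower, Car9, which was thereby singled out after its values were seen, with a log2 fold change of -1.35 (adjusted p = 0.67).

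Of 29 other angiogenic factors and related receptors, 13 were tested and 0 were called, and the median was 0.3. At an unadjusted p under 0.05, 4 were higher and 0 lower, against 4.35% and 2.53% of all genes tested. The summed level of the 29 genes was 195 to 244 normalized CPM in the controls and 265 to 271 in the knockouts, without overlap. Its most abundant members, Ang, Thbs1 and Kit, described next, each had overlapping groups. Thbs1, an inhibitor of vessel growth, was at 39.3 ± 18.1 normalized CPM in controls and 65 ± 15.1 in knockouts (SD, n = 4 each; log2 fold change 0.73, standard error 0.33, adjusted p = 0.713). Kit, a receptor tyrosine kinase related to the VEGF receptors, had 45.8 ± 7.17 and 39.5 ± 3.86 (log2 fold change -0.21, adjusted p = 0.913), and angiogenin (Ang), which shares 18.2% of its exon bases with Rnase4, had a log2 fold change of -0.03. Singled out after their values were seen, Met, the receptor of hepatocyte growth factor, was at 7.03 ± 2.45 in the controls and 15.4 ± 1.94 in the knockouts with no overlap (log2 fold change 1.13, standard error 0.28, adjusted p = 0.274, in a range from 0.00999 to 0.561 over the alternatives). The Kit ligand Kitl had a log2 fold change of 1.48 (SE 0.43, adjusted p = 0.39) and Csf1 of 2.47 (SE 0.73, adjusted p = 0.4), both with overlapping groups. Without knockout 3, Kitl passed both cutoffs (log2 fold change 1.75, adjusted p = 0.024). Vegfd, the remaining VEGF ligand, had at most 7 counts in a library and did not pass the filter.

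**Figure D4:**
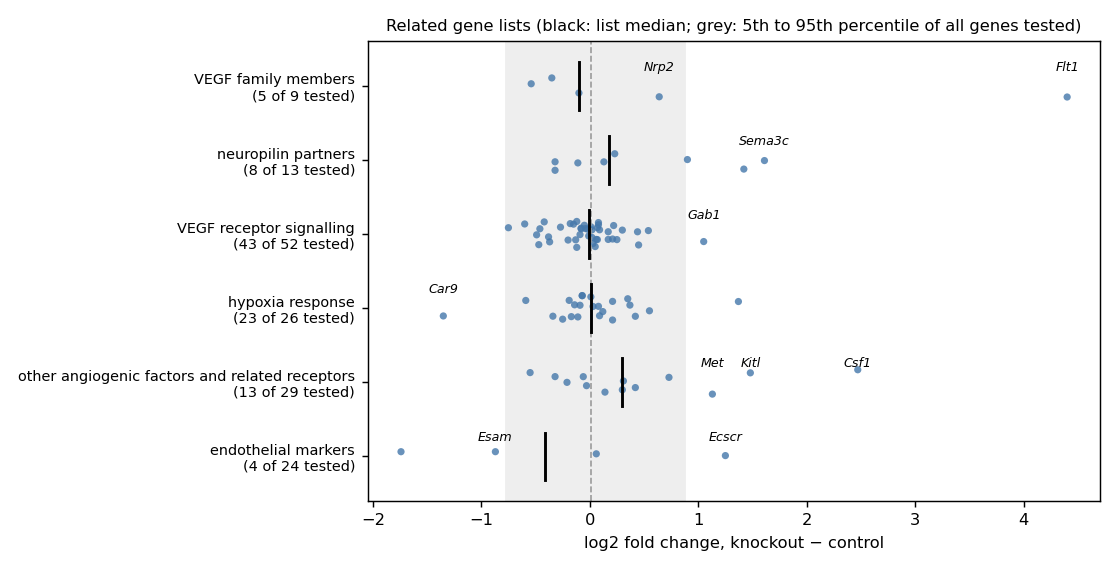
Log2 fold changes between knockouts and controls (x axis) of the tested genes in 6 lists; black bars are list medians, the dashed line is the median of all 13439 genes tested (0.01) and the grey band runs from their 5th to their 95th percentile (-0.77 to 0.88). Flt1, chosen for its difference, lies at 4.4, and the next gene shown is Csf1 at 2.47. Genes that did not pass the filter on low counts are not shown, among them Sema3e and Sox18. In the fit without that filter these were at 4.69 and 4.35.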

How the data were processed

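Sorted Paneth cells of 8 mice were profiled by Smart-seq2, which copies polyadenylated RNA and amplifies it by PCR. The authors aligned the reads to mm10 with GSNAP and deposited raw counts of uniquely mapped reads per gene of Ensembl release 92 (featureCounts 1.6.3, per the labels' processing notes), without normalization. The strand setting is not given in the sources used here. Nrp1 shares 0.8% of its exon bases with another gene, and the other 8 genes share none. Gene lengths came from the deposited table. The authors' methods paragraph on sorting names Mll1 alleles without beta-cateninGOF, and the labels' design text was followed. The 92 spike-in rows, with at most 7 counts each, were left out. Symbols matched 53620 of 53801 genes.

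Groups follow the genotype label, and replicate numbers are names. The labels fall into 2 runs of sample numbers, taken as library sets. The titles of control 4 and knockout 4 share a number whose meaning the labels do not give, and no pairing was drawn from it. The authors' methods paragraph on sorting calls the mice littermates, without saying which mice shared a litter. Any 2 libraries differed by a chi-square of at least 12.1 per degree of freedom, so none was a copy of another.

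Tests used R 4.3.3 with edgeR 4.0.16 (filterByExpr at min.count 10 and min.total.count 15, TMM, robust quasi-likelihood fit, Benjamini-Hochberg over 13439 genes); limma 3.58.1 and DESeq2 1.42.0 served as alternatives. Standard errors are the log2 fold change divided by the square root of F. Ratios of summed counts have exact 95% binomial intervals; PCR copies are counted separately, so these cover counting error only. Each mouse gave a single library, so p-values measure the spread between libraries, in which mouse, sorting and amplification cannot be told apart. The functions were tested on simulated data. The 9 genes and the lists were chosen with earlier results of these data known. Named were the 9 genes, Pecam1, Cdh5, Tek, Tie1 and Kmt2a, the called and the 3 most abundant genes of each list, and the 5 genes most like Flt1; other genes were singled out after their values were seen.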

Additional observations from a re-analysis of the deposited data

Results flagged for a closer look

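Among 26 groups of 4 libraries, 4 had a library whose gap to its nearest neighbour exceeded Dixon's 95% critical share of the group's range, where chance alone gives about 1 in 20. Nrp1 in control 4 was at 2.76 normalized CPM against 1 to 1.08 in the other controls (gap 0.958 of the range). The other 3 rest on a few reads: Kdr in knockout 2 at 0.0574 normalized CPM, from 1 count, Flt4 in knockout 2 at 0.172, from 3 counts, and Pgf in control 4 at 0.316, from 4 counts, each with no count in the other 3 libraries of its group.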

How the results depend on the processing

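The log2 fold change of Flt1, whose direction its choice had fixed, was 4.4 to 4.68 with all libraries and, leaving out single libraries, 4.02 to 5.01, and nothing is read from it. With at least 10 counts in every library Flt1 and Nrp1 were not tested, 13 genes were called in all and 0 of the 9. With one library left out, between 10 (without control 3) and 152 genes (without knockout 3) were called, and between 0 and 1 of the 9: Flt1 lost its call without control 1, 2 or 3 or knockout 1 or 2, fits with fewer samples. The same fits called 0 to 1 neuropilin partners and 0 to 1 other angiogenic genes, the calls being Sema3c and Kitl without knockout 3. Without a filter on low counts 290 genes were called, among them 2 neuropilin partners (Sema3c, Sema3e), 3 other angiogenic genes (Kitl, Csf1, Met) and 2 endothelial markers (Ecscr, Sox18). DESeq2's Wald test called 138 genes, with 1 other angiogenic gene (Met) and 1 endothelial marker (Ecscr), and limma-voom 95, with 1 neuropilin partner (Sema3c), 1 other angiogenic gene (Kitl) and 1 endothelial marker (Ecscr). An adjusted p of at most 0.1 without a fold limit gave 38. The cause of these differences was not tested. The other scalings and the library set as a block left all these counts within 1.5 times. The sign of Vegfa turned, to 0.02, without knockout 2. No paired analysis was made, because the labels do not say which mice of the groups were littermates. Kdr, Flt4, Vegfc and Pgf entered only the fit without a filter, where 290 of 37039 genes were called and these 4 were not.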

Other observations

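Some genes of the lists did not pass the filter on low counts and entered only the alternative fit without it. Sema3e, a semaphorin that acts on Plxnd1, had 1, 0, 2 and 0 counts in controls 1 to 4 and 22, 89, 0 and 3 in knockouts 1 to 4. Sox18, a transcription factor of endothelium, had 0, 3, 0 and 0 counts in the controls and 3, 42, 0 and 44 in the knockouts, while Kdr had at most 1 count in those knockouts. Pdgfrb, a receptor of pericytes, had 7, 7, 3 and 6 counts in the controls and 1, 0, 0 and 0 in the knockouts. Cd34, a marker of endothelial and progenitor cells, had 9, 4, 3 and 16 counts in the controls and 2, 3, 0 and 0 in the knockouts. In the edgeR fit without a filter, Sema3e and Sox18 were called (log2 fold change 4.69 and 4.35, adjusted p = 0.000249 and 0.00303), and Pdgfrb and Cd34 were not (-4.11 and -2.78, adjusted p = 0.228 and 0.418). These genes were singled out after their values were seen.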
